A study of Mus musculus with 6 samples.

Results

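The receptor gene *Gpr65* and 8 other genes for receptors that read extracellular metabolites were followed in splenic CD4+ T cells re-activated under checkpoint blockade. The genes were chosen by name: *Gpr65*, *Gpr132*, *Gpr183*, *Gpr171*, *Gpr174*, *P2ry10*, *P2rx7*, *Ptger4*, and *Adora2a*, 9 of 47643 genes listed in the count table. Earlier results of these data were known when they were chosen, so *Gpr65* was not an independent choice. All 9 had at least 10 reads over the 6 samples and were among the 11877 genes tested. Of these, 8 encode G protein-coupled receptors, and *P2rx7* encodes an ATP-gated ion channel.

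The 6 samples came from Tg4 Tiger *Nr4a3*-Tocky mice, whose T cells carry a transgenic receptor for myelin basic protein (MBP) peptide, a Timer reporter driven by *Nr4a3*, and a GFP reporter for *Il10*. Every mouse was first immunised with 80 µg of 4Y MBP peptide. A day later (24 h), 800 µg of antibody was injected: an isotype pool of rat IgG1 and rat IgG2a (Isotype), anti-PD1 (clone 29F.1A12), or anti-Lag3 (clone CB97W in the labels), with 2 samples in each group. A second peptide dose of 8 µg followed after 30 min, and spleens were taken 4 h later, so that the isotype samples were also primed and re-challenged. CD4+ cells positive for both the blue and the red form of Timer were sorted, and the mRNA was sequenced from its 3′ ends. Both forms mark cells that had transcribed *Nr4a3* recently and earlier, so non-responding T cells were not measured. Ages and sexes were not given per sample. The samples of a group are described as biological duplicates, and p-values are set against the spread between such samples. In the edgeR tests below, the spread of each gene was estimated largely from all genes tested together.

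GPR65 is a cell surface receptor activated by extracellular protons; acidification of inflamed or tumour tissue engages it, and it signals through Gs, adenylyl cyclase, and cAMP. Several of the other receptors also raise cAMP, among them an adenosine receptor (*Adora2a*), the prostaglandin E receptor EP4 (*Ptger4*), and the lysophosphatidylserine receptor GPR174. Such receptors allow T cells to sense pH, nucleotides, and lipids in tissue, and cAMP is known to dampen T cell receptor signals.

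*Gpr65* (ENSMUSG00000021886) is on the plus strand of GRCm38 at chr12:98268635-98276644. *Ptger4* (ENSMUSG00000039942) is on the minus strand at chr15:5206661-5244187. Shown are the 250 bases directly upstream of the RefSeq start of these genes (build GRCm38.p6), because they were the only members whose levels were ordered across the 3 antibody groups without overlap, in opposite directions. The *Gpr65* window spans chr12:98268385-98268634 on the plus strand and the *Ptger4* window chr15:5244188-5244437 on the minus strand, each written 5′ to 3′. Capitals mark a match to the NFAT core TGGAAA on either strand.
Gpr65: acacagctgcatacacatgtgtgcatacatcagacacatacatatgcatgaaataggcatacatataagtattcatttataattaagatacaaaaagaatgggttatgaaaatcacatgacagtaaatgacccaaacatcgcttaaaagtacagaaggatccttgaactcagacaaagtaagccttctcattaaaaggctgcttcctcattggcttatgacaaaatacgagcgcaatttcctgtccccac
Ptger4: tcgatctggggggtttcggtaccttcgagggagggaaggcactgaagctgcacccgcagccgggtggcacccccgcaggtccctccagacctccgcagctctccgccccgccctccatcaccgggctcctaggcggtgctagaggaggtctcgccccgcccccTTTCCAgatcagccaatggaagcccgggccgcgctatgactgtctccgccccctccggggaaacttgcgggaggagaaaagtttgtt
The NFAT core was found in 18.6% of 32851 mouse promoter windows of this length, the AP-1 motif TGANTCA in 6.75%, and the cAMP response element TGACGTCA in 1.55% (both strands searched, and the 3 motifs counted separately). The *Gpr65* window holds none of the 3, which says only that these letters are not in these bases. The *Ptger4* window holds 1 NFAT core, 87 bases upstream. RefSeq windows were matched for 7 of the 9 genes. Among the others, the *Gpr174* window holds an NFAT core 249 bases upstream, and AP-1 motifs are in windows of *P2ry10* (99 bases upstream) and *P2rx7* (249 bases upstream).

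*Gpr65* transcript levels were lowest with isotype, higher with anti-Lag3, and highest with anti-PD1. Levels are given as CPM, reads relative to library size, with library sizes scaled by edgeR's TMM method. They were 64.1 and 55.5 CPM in the isotype samples, from 136 and 138 reads. The anti-Lag3 samples had 86.4 and 79.5 CPM (205 and 214 reads), and the anti-PD1 samples 158 and 133 CPM (330 and 326 reads). No sample of one group overlapped another group. Group means were 59.8 ± 6.04 CPM with isotype, 83.0 ± 4.92 with anti-Lag3, and 146 ± 17.6 with anti-PD1 (SD, n = 2 each). The same order without overlap, in either direction, held for 418 of the 11877 genes tested (3.52%).

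*Gpr65* rose with anti-PD1 relative to isotype by 1.28 on the log2 scale (SE 0.16, 95% interval 0.95 to 1.62), a fold of 2.44 (adjusted p = 1.63e-06, by edgeR's quasi-likelihood test, Benjamini-Hochberg adjustment over all genes tested). Both anti-PD1 samples were above both isotype samples. At this threshold, an adjusted p under 0.05, 107 genes were called, or 0.901% of those tested, against 1 of the 9 receptor genes. Relative to anti-Lag3, *Gpr65* was also higher with anti-PD1, by 0.81 (SE 0.16, 95% interval 0.49 to 1.13, adjusted p = 0.00547 in the same test), a fold of 1.75. Here 36 genes were called (0.303%), again including 1 of the 9 receptor genes. This second call was lost when anti-PD1 replicate 1 (adjusted p = 0.398), anti-PD1 replicate 2 (0.0913), or anti-Lag3 replicate 2 (0.107) was left out in edgeR's test, while the log2 difference stayed between 0.68 and 0.93. The comparisons share samples, and a lone remaining sample was assumed to vary like the other groups.

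The step from isotype to anti-Lag3 did not pass the test for *Gpr65*. The fitted log2 difference was 0.47 (SE 0.17, 95% interval 0.13 to 0.81), with an unadjusted p of 0.00761 and an adjusted p of 0.667 by edgeR's quasi-likelihood test. In this comparison 5 genes were called in all (0.0421%), and 0 of the 9 receptor genes. DESeq2 and limma-voom also called 0 of the 9. With edgeR, 2 of the 9 (*Gpr65* and *Ptger4*) had an unadjusted p under 0.05, beside 708 of the 11877 genes tested.

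**Figure D1:**
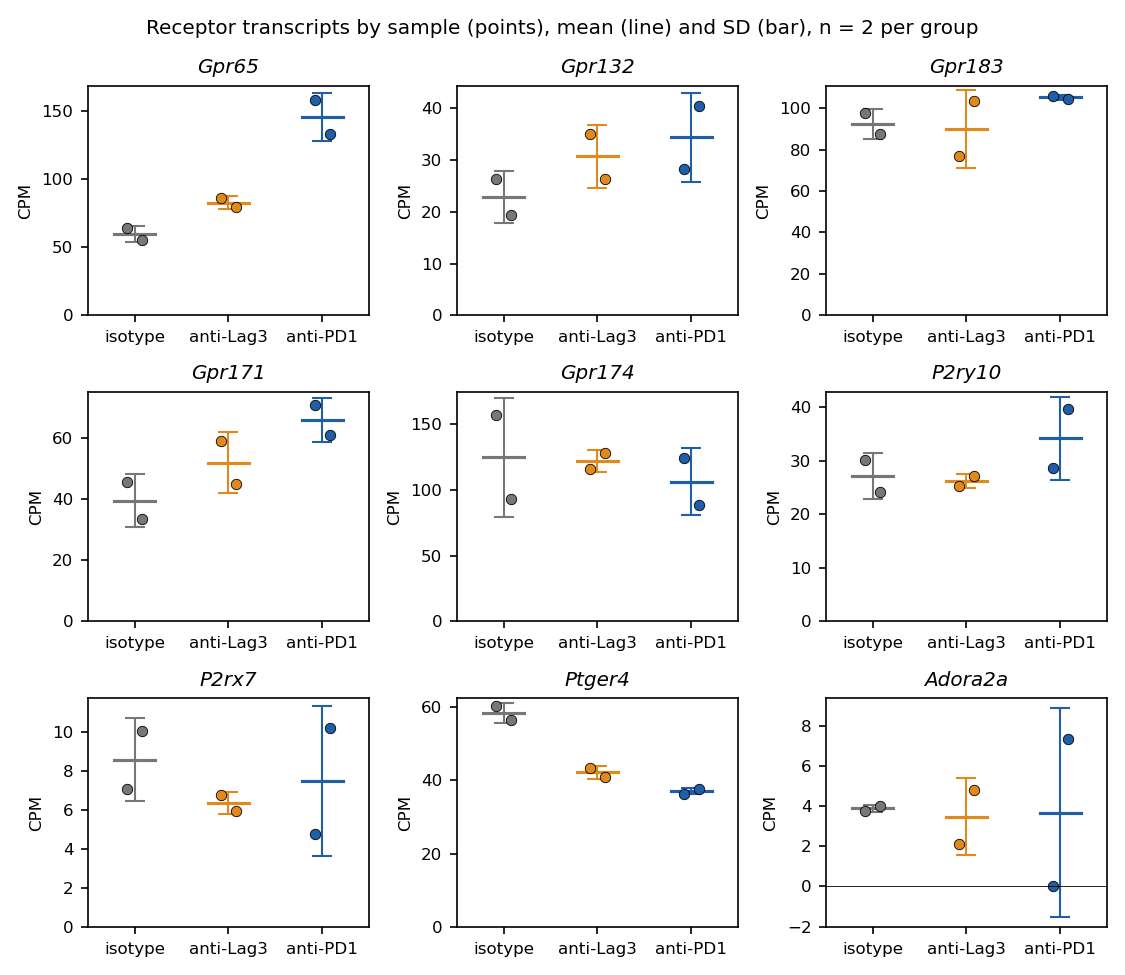
CPM (y axes, each with its own scale) of the 9 receptor genes by antibody group; points are samples, horizontal lines group means, and vertical bars the SD of n = 2. *Gpr65* climbs from 55.5 to 64.1 CPM with isotype to between 133 and 158 with anti-PD1, and *Ptger4* runs the other way. The points of *Gpr174*, *P2ry10*, *P2rx7*, and *Adora2a* are intermingled between isotype and anti-PD1.

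*Gpr132* encodes a relative of GPR65 in the proton-sensing family that also responds to oxidised fatty acids and lysolipids. It was measured at 26.4 and 19.3 CPM with isotype, 35.0 and 26.4 with anti-Lag3, and 28.3 and 40.5 with anti-PD1. Both anti-PD1 samples lay above both isotype samples, and they overlapped the anti-Lag3 samples. The log2 difference between anti-PD1 and isotype was 0.60 (SE 0.28, 95% interval 0.04 to 1.16), and it did not pass the test (adjusted p = 0.546, edgeR with Benjamini-Hochberg adjustment). Its interval overlaps that of *Gpr65*. *Gpr4*, of the same family, had 0 reads in every sample.

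*Gpr171* encodes a receptor reported to bind the neuropeptide BigLEN. Of the 6 other receptor genes with a mean of at least 20 CPM, it had the highest correlation with *Gpr65* over the 6 samples. Levels were 45.7 and 33.4 CPM with isotype, 59.0 and 44.9 with anti-Lag3, and 70.9 and 60.9 with anti-PD1. The anti-PD1 samples were above all others, and the anti-Lag3 and isotype samples overlapped. The log2 difference between anti-PD1 and isotype was 0.74 (SE 0.21, 95% interval 0.31 to 1.17), with an unadjusted p of 0.00123 and an adjusted p of 0.0923 by edgeR, which did not pass. It passed when anti-Lag3 replicate 1 (adjusted p = 0.047) or anti-Lag3 replicate 2 (0.0448) was left out of the edgeR fit, and DESeq2 gave an adjusted p of 0.504. Over the 15 alternatives the difference ranged from 0.52 to 0.98.

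No difference of the 2 lysophosphatidylserine receptors or the oxysterol receptor between antibody groups passed the test. *Gpr174* had 157 and 93.0 CPM with isotype, 116 and 128 with anti-Lag3, and 125 and 88.3 with anti-PD1, so that the isotype pair alone spanned the other 4 samples except the lowest anti-PD1 sample. Its log2 difference between anti-PD1 and isotype was -0.23 (SE 0.18, 95% interval -0.59 to 0.13). *P2ry10* had 30.2 and 24.2 CPM with isotype, 25.3 and 27.1 with anti-Lag3, and 28.7 and 39.7 with anti-PD1. The difference between anti-PD1 and isotype was 0.34 on the log2 scale (SE 0.27, 95% interval -0.19 to 0.88). Although its name places it among the P2Y receptors, *P2ry10* is known to respond to lysophosphatidylserine. Its close copy *P2ry10b* had at most 5 reads in any sample, and reads that could be split between the copies make both uncertain.

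*Gpr183* encodes EBI2, which guides lymphocytes along gradients of dihydroxycholesterols in the spleen. The isotype samples had 97.5 and 87.3 CPM, the anti-Lag3 samples 76.7 and 103, and the anti-PD1 samples 106 and 104. Both anti-PD1 samples were above the rest, by a small margin: the log2 difference from isotype was 0.19 (SE 0.16, 95% interval -0.14 to 0.52), which holds no rise of the size seen for *Gpr65*. The adjusted p was 0.877 by edgeR. Of 4 enzymes that make or break down its ligands, 0 reached 10 reads over the 6 samples, and the most abundant had 5.

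*Ptger4* was lower in both antibody groups than with isotype, without overlap, and no difference passed the test. Levels were 60.3 and 56.4 CPM with isotype, 43.4 and 40.9 with anti-Lag3, and 36.4 and 37.6 with anti-PD1. The log2 difference from isotype was -0.65 with anti-PD1 (SE 0.21, 95% interval -1.08 to -0.23, adjusted p = 0.181 by edgeR). With anti-Lag3 it was -0.47 (SE 0.21, 95% interval -0.89 to -0.05, adjusted p = 0.79 by edgeR). The unadjusted p-values were 0.00365 and 0.0287. *Ptger4* overlaps *Ttc33*, which is on the other strand and shares exons that include the 3′ end of *Ptger4*. *Ttc33* had 298 reads in all and log2 differences from isotype of -0.10 with anti-PD1 and -0.39 with anti-Lag3, and the strand setting of the counting was not given in the sources used here. The 3′ end of *Gpr65* is likewise overlapped by the exons of an antisense gene, *Gm47566*, which is not among the genes of the count table.

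The ATP channel and the adenosine receptor were too sparse for a statement about direction. *P2rx7* had 15 and 25 reads with isotype, 16 and 16 with anti-Lag3, and 10 and 25 with anti-PD1 (107 in all), and a log2 difference between anti-PD1 and isotype of -0.18 (SE 0.50, 95% interval -1.19 to 0.83). *Adora2a* had 8 and 10 reads with isotype, 5 and 13 with anti-Lag3, and 0 and 18 with anti-PD1. The 0 allows a level of up to 1.44 CPM, the value of 3 reads in that library. The 95% interval of its log2 difference between anti-PD1 and isotype ran from -1.77 to 1.70, so that a change as large as that of *Gpr65* was not detectable at this depth.

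**Figure D2:**
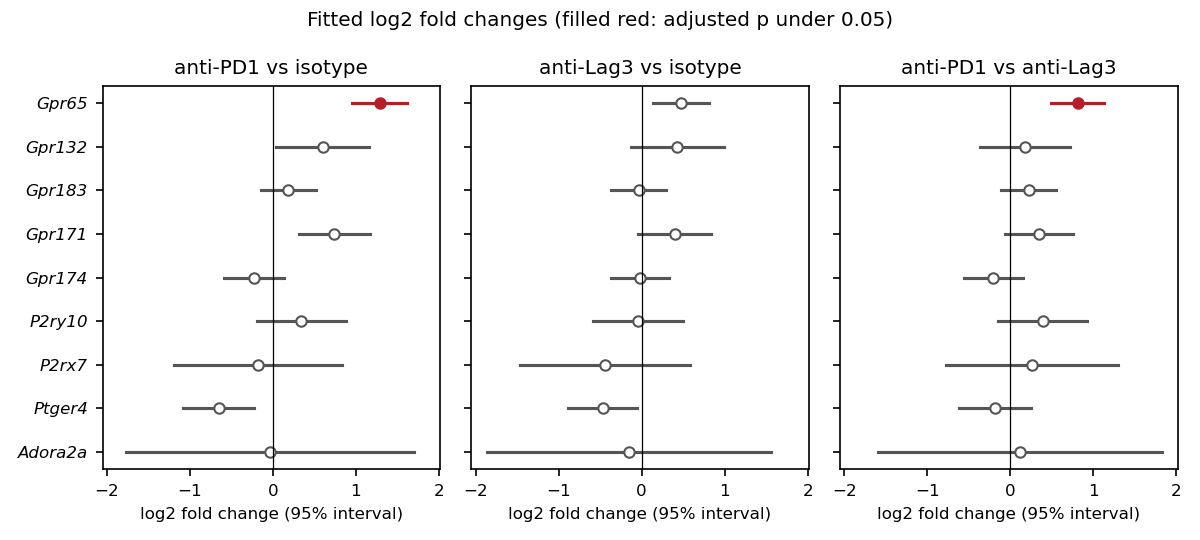
Fitted log2 fold changes (x axes, points) with 95% intervals (lines) of the 9 receptor genes in the 3 comparisons; filled red points passed the test at an adjusted p under 0.05. *Gpr65* passed in anti-PD1 vs isotype (1.28) and in anti-PD1 vs anti-Lag3 (0.81), no gene passed in anti-Lag3 vs isotype, and the intervals of *Adora2a* and *P2rx7* are the widest.

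Across the 9 genes, the median log2 difference between anti-PD1 and isotype was 0.19, and 0.08 without *Gpr65*, beside a median of 0.00 over all genes tested. Of the 9, 5 were above 0 and 4 below. The groups did not overlap for 5 of the 9 (*Gpr65*, *Gpr132*, *Gpr183*, and *Gpr171* higher, *Ptger4* lower), where 37.4% of all genes tested did not overlap. Between anti-Lag3 and isotype the median was -0.03, and 3 of the 9 did not overlap (*Gpr65* higher, *P2rx7* and *Ptger4* lower), beside 34.6% of all genes. Between anti-PD1 and anti-Lag3 the median was 0.22, and 5 of the 9 did not overlap (*Gpr65*, *Gpr183*, *Gpr171*, and *P2ry10* higher, *Ptger4* lower), beside 35.9%. These comparisons share samples and are not independent of each other.

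To set *Gpr65* against the other receptors inside each sample, where library size cancels, its reads were divided by those of each other gene (0.5 reads added to both). With isotype, *Gpr65* had fewer reads than *Gpr183*, with log2 ratios of -0.60 and -0.65, and with anti-PD1 it had more, with ratios of 0.58 and 0.35. The anti-Lag3 samples were on either side of 0, at 0.17 and -0.38. Against *Gpr174* the log2 ratio turned in the same way, from -1.29 and -0.74 with isotype to 0.34 and 0.59 with anti-PD1, and the anti-Lag3 samples at -0.43 and -0.69 were near the isotype samples. Against *Ptger4* it went from 0.09 and -0.02 with isotype, through 0.99 and 0.96 with anti-Lag3, to 2.11 and 1.82 with anti-PD1. The *Ptger4* ratio therefore separated all 3 groups.

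All 8 ratios were higher with anti-PD1 than with isotype without overlap, by log2 differences from 0.53 (against *Gpr171*) to 1.93 (against *Ptger4*) among the 7 denominators with reads in every sample. The difference against *Adora2a*, 2.89, rests on the sample with 0 reads. Between anti-Lag3 and isotype, 5 of the 8 ratios were higher without overlap, and those against *Gpr132*, *Gpr171*, and *Adora2a* overlapped. Between anti-PD1 and anti-Lag3, 5 were higher without overlap (8 without anti-PD1 replicate 2), and those against *P2ry10*, *P2rx7*, and *Adora2a* overlapped. Each ratio was compared by a two-sided exact permutation test, and with 2 samples against 2 no p can go below 0.33, so that none could pass. All 8 ratios share the *Gpr65* reads as numerator, so a difference in *Gpr65* alone moves all of them. How many of all genes tested would separate the groups as denominator was not computed. The counts of ratios therefore do not set these receptors apart from other genes.

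**Figure D3:**
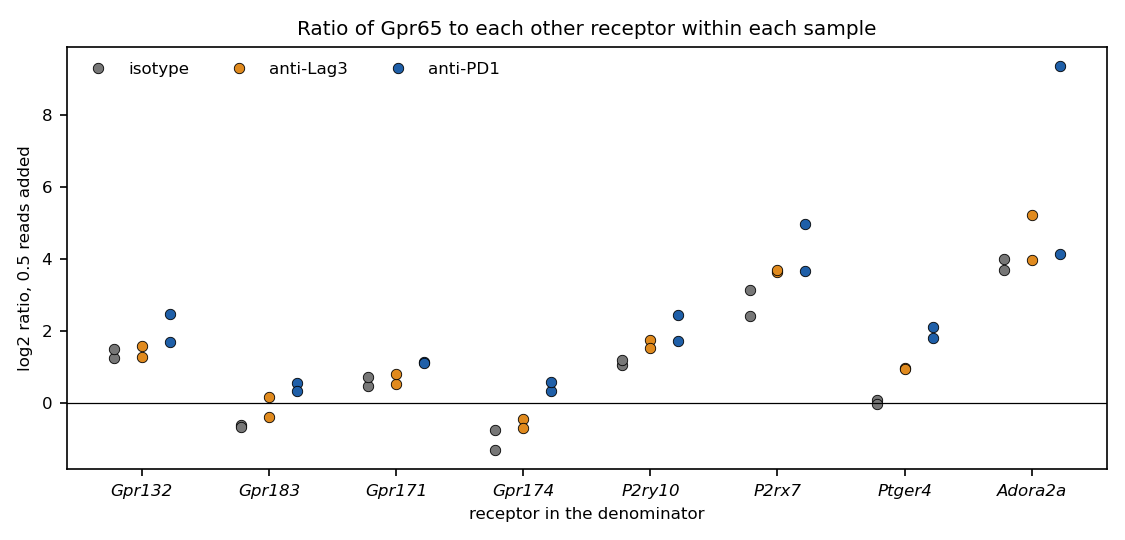
Log2 ratio of *Gpr65* reads to the reads of each other receptor gene within a sample (y axis, 0.5 reads added to both); each point is a sample, coloured by antibody group. The anti-PD1 points lie above the isotype points for all 8 denominators, and the topmost *Adora2a* point (9.37) is the sample with 0 *Adora2a* reads.

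The genes whose levels were most like those of *Gpr65* over the 6 samples were ranked by Pearson's r of log2(CPM + 1), among 5432 other genes with a mean of at least 20 CPM. The highest were *Dusp5* (0.996), a phosphatase of ERK, *Eed* (0.990), a subunit of Polycomb repressive complex 2, *Camsap2* (0.990), a microtubule minus-end protein, *Stat5a* (0.989), a transducer of cytokine signals, and *Irf4* (0.986), a transcription factor of activated T cells. *Camsap2*, for example, had 22.9 ± 1.62 CPM with isotype, 30.4 ± 1.19 with anti-Lag3, and 60.4 ± 10.2 with anti-PD1 (SD, n = 2). The 5 lowest were *Arhgef3* (-0.988), *Lsm6* (-0.985), *Esyt2* (-0.985), *Foxn3* (-0.983), and *Fam111a* (-0.983). *Foxn3*, a forkhead transcription factor, had 113 ± 1.56 CPM with isotype, 91.9 ± 6.56 with anti-Lag3, and 58.2 ± 0.978 with anti-PD1. Of the receptor genes with enough reads, *Gpr171* had an r of 0.91 (rank 86), *Gpr132* 0.66, *P2ry10* 0.57, *Gpr183* 0.49, *Gpr174* -0.17, and *Ptger4* -0.89 (rank 5330). These values describe 6 samples in 3 groups and share the libraries and the scaling.

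The wider families around these receptors were read from lists of 158 genes in all. *Gpr183* and *Gpr171* are in none of these lists, and the other receptors are included. Of the 158 genes, 156 were matched by name, 91 were tested, and 43 had 0 reads. Between anti-PD1 and isotype, 3 of the 91 passed the test, beside 0.901% of all genes tested. They were *Gpr65*, *Crem*, and *Irf4*, all higher with anti-PD1. Between anti-Lag3 and isotype 0 passed, with edgeR, DESeq2, and limma-voom, and between anti-PD1 and anti-Lag3 only *Gpr65* passed with these 3 tools. At an unadjusted p under 0.05 with edgeR, 16, 11, and 11 of the 91 genes differed in the 3 comparisons. Of all 11877 genes tested, 964, 708, and 776 did. Without the receptors among them and the genes listed as a check on the T cell receptor response, 75 genes were tested. Only *Crem* passed, between anti-PD1 and isotype. At the unadjusted threshold, 10, 9, and 8 of these 75 differed in the 3 comparisons.

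*Crem*, a cAMP-responsive transcription factor that is induced by cAMP signals, had 25.4 and 9.26 CPM with isotype, 27.4 and 37.9 with anti-Lag3, and 59.9 and 63.0 with anti-PD1. Its anti-PD1 samples were above all others, and its isotype samples differed most from each other. It rose with anti-PD1 relative to isotype by 1.85 on the log2 scale (SE 0.29, adjusted p = 5.6e-05 by edgeR), by 2.73 without isotype replicate 1 (adjusted p = 1.18e-06), and by 1.27 without isotype replicate 2 (adjusted p = 0.0338). The other 10 listed cAMP-responsive factors did not pass, among them *Creb1*, which binds the cAMP response element (log2 difference -0.01, SE 0.15), and its coactivators *Crebbp* (-0.02, SE 0.12) and *Ep300* (0.10, SE 0.16). *Sik3*, a kinase that restrains CREB coactivators and is named here after its values were seen, had 26.9 and 26.2 CPM with isotype, 26.1 and 23.4 with anti-Lag3, and 50.3 and 47.4 with anti-PD1. Its log2 difference between anti-PD1 and isotype was 0.88 (SE 0.24, adjusted p = 0.0703 by edgeR), and it passed in edgeR fits of the 4 samples of that comparison and without either anti-Lag3 replicate. Relative to isotype, the difference of *Crem* with anti-Lag3 was 0.95 (SE 0.30, adjusted p = 0.607 by edgeR), and 1.83 (adjusted p = 0.0255) without isotype replicate 1.

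Signal transducers downstream of the receptors did not pass in any of the 3 comparisons. Of 12 G protein alpha subunits, 8 were tested. *Gnas*, the Gs subunit through which GPR65 acts, had 263 ± 9.25 CPM with isotype, 275 ± 13.7 with anti-Lag3, and 258 ± 20.4 with anti-PD1 (SD, n = 2), a log2 difference of -0.02 (SE 0.12) between anti-PD1 and isotype. The Gi subunit *Gnai2* differed by -0.15 (SE 0.10) and *Gna13* by 0.15 (SE 0.15). Of 26 adenylyl cyclases, protein kinase A subunits, and phosphodiesterases, 16 were tested, with 8 above 0 and 8 below between anti-PD1 and isotype. The kinase subunits *Prkar1a*, *Prkacb*, and *Prkar2a* differed by 0.16 (SE 0.13), -0.33 (SE 0.16), and 0.19 (SE 0.16). Of 14 genes that desensitise receptors, 13 were tested, including *Grk2* (-0.30, SE 0.16), *Grk6* (-0.08, SE 0.15), and *Rgs10* (-0.24, SE 0.15).

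Most related receptors were at or near 0. Of 14 P2Y and P2X nucleotide receptors, 8 had 0 reads and 4 were tested, with none called; *P2rx4* was the most abundant of those outside the 9 (mean 8.12 CPM over all samples). Of 9 prostanoid receptors, 4 had 0 reads and 3 were tested: *Ptger4*, *Ptger2* (0.33, SE 0.41 between anti-PD1 and isotype), and *Tbxa2r* (-0.96, SE 1.06). Of 20 receptors for leukotrienes, fatty acids, and other metabolites, 11 had 0 reads and 4 were tested. Of 18 genes listed as lysophospholipid receptors, 11 were tested and none called. The most abundant of these outside the 9 was *Gpr18*, although the listing does not establish its ligand. *Gpr18* had 31.1 and 41.5 CPM with isotype, 54.0 and 46.1 with anti-Lag3, and 52.2 and 66.2 with anti-PD1. Its samples in both antibody groups were above both isotype samples, and the log2 difference between anti-PD1 and isotype was 0.70 (SE 0.22, adjusted p = 0.142 by edgeR).

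Among 11 genes for adenosine receptors and adenosine handling, 7 were tested and none called. The nucleoside transporter *Slc29a1* had 78.3 ± 6.03 CPM with isotype and 58.3 ± 0.278 with anti-PD1 (SD, n = 2), a log2 difference of -0.43 (SE 0.18). Adenosine kinase, *Adk*, differed by -0.37 (SE 0.26), and adenosine deaminase, *Ada*, by 0.73 (SE 0.50). For prostaglandin synthesis and breakdown 3 of 6 genes were tested, and *Ptges3*, a co-chaperone with prostaglandin E synthase activity, differed by 0.29 (SE 0.14).

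**Figure D4:**
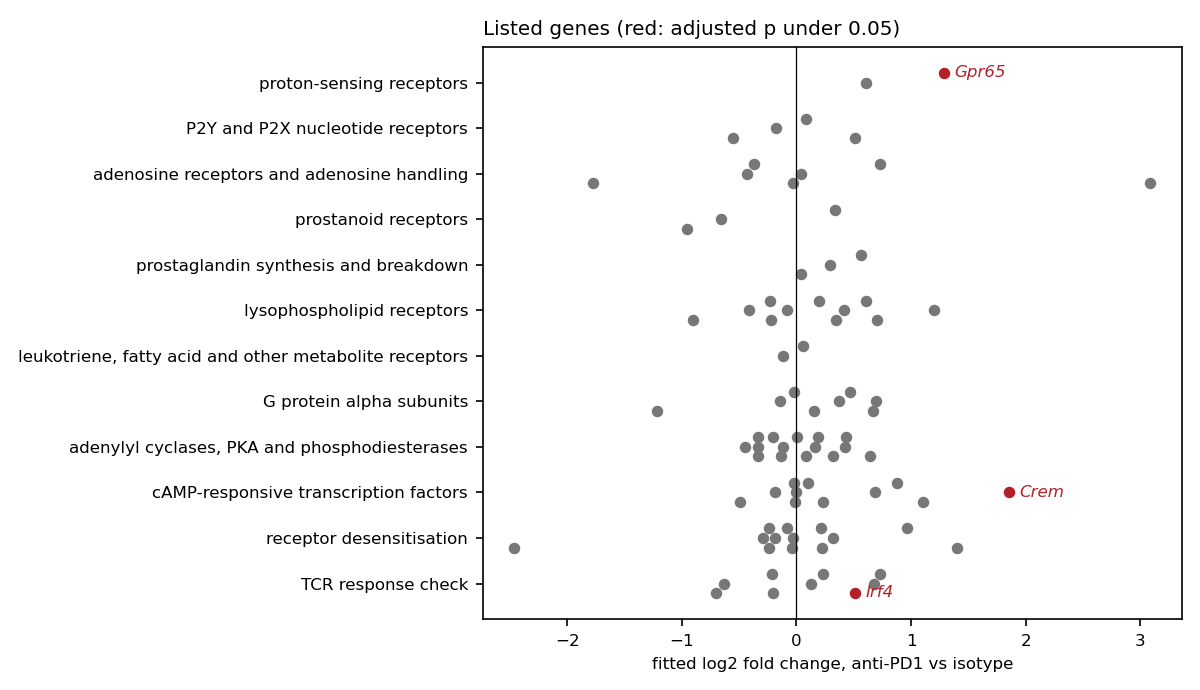
Fitted log2 fold changes between anti-PD1 and isotype (x axis) of the tested genes of each listed family (y axis), each point a gene; genes with 0 reads in either group and a gene not reported here are left out, and the vertical offset within a family only separates points. *Gpr65*, *Crem*, and *Irf4*, in red, passed the test at an adjusted p under 0.05.

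Libraries held 2107715 to 2648920 reads, so that 3 reads in a sample correspond to 1.11 to 1.44 CPM. In these bulk samples fewer cells of a type and less RNA per cell cannot be told apart. The summed level of 12 CD4+ T cell markers was 3063 to 3468 CPM in all samples. Between anti-PD1 and isotype, 5 of these 12 were above 0 and 7 below (median log2 difference -0.14). Only *Cd5*, which was higher, was called. *Nr4a3* itself, the gene behind the sort, had 48.2 ± 4.44 CPM with isotype, 38.8 ± 2.92 with anti-Lag3, and 29.6 ± 0.189 with anti-PD1 (SD, n = 2, adjusted p = 0.195 for anti-PD1 against isotype by edgeR), while *Irf4* was higher with anti-PD1 than with isotype by 0.51 (SE 0.11, adjusted p = 0.00802 by edgeR), a call lost without isotype replicate 2 (0.247), anti-PD1 replicate 1 (0.283), or anti-PD1 replicate 2 (0.105). *Pdcd1* had 12.6 ± 0.474 CPM with anti-PD1 and 14.7 ± 1.94 with isotype, and *Lag3* at most 7.59 CPM in any sample. *Cd5*, a CD4+ T cell marker that also follows receptor signal strength, rose with anti-PD1 relative to isotype by 1.01 (SE 0.19, adjusted p = 0.00154 by edgeR), a call lost without isotype replicate 2 (0.0588) or anti-PD1 replicate 2 (0.301).

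Markers of other cell types were summed by list, and the sums were not tested. The summed level of 12 B cell markers was 126 to 141 CPM with isotype, 87.7 to 128 with anti-Lag3, and 58.5 to 71.4 with anti-PD1, with *Cd79a* at 0 in every sample and *Ighm* and *Igkc* called lower with anti-PD1 than with isotype (7 of 9 tested markers below 0 and 2 above). For 12 macrophage and monocyte markers it was 58.8 to 69.3, 38.8 to 39.0, and 22.5 to 38.8 CPM, with *Vsig4* at 0 and *C1qa* called lower (7 of 9 below 0 and 2 above). Dendritic cell markers summed to 31.6 to 45.5, 13.5 to 39.7, and 16.3 to 20.4 CPM (4 of 10 at 0), and CD8 T and NK cell markers to 52.3 to 58.9, 33.8 to 35.8, and 31.9 to 36.4 CPM. Most of the CD8 T and NK cell sum was a single gene, *Cd8b1*, with means of 45.5, 30.2, and 30.0 CPM in the same order. Of the 4 tested markers of that list, 3 were below 0 and 1 above between anti-PD1 and isotype, and none was called. The 4 regulatory T cell markers summed to 691 to 731 CPM with isotype, 689 to 843 with anti-Lag3, and 762 to 822 with anti-PD1. Between anti-PD1 and isotype, 2 of them were above 0 (*Il2ra* and *Ctla4*) and 2 below (*Foxp3* and *Ikzf2*), and none was called. *Il2ra* had means of 444 CPM with isotype and 503 with anti-PD1, and *Foxp3* 9.23 and 4.74. With edgeR the call of *C1qa* was lost without any single isotype or anti-PD1 sample (adjusted p 0.165 to 0.34), that of *Ighm* without isotype replicate 2 (0.238), anti-PD1 replicate 1 (0.0573), or anti-PD1 replicate 2 (0.432), and that of *Igkc* without anti-PD1 replicate 2 (0.192). The B cell, macrophage, dendritic cell, and CD8 T and NK cell sums were lower with anti-PD1 than with isotype, as was *Ptger4*, and their part in the receptor values was not tested.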

How the data were processed

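QuantSeq 3′ libraries of 6 samples (isotype, anti-PD1, and anti-Lag3, n = 2 each) were sequenced by the authors. After trimming (Bbduk) and alignment to GRCm38 (STAR 2.5.2a), the authors obtained a read count per gene with HTSeq-count, and these raw counts were deposited. The annotation release and strand setting are not given in the sources used here. The authors also deposited rlog values (log2 scale, DESeq2) of the 11877 genes with at least 10 reads; these were not tested. A further replicate batch, set aside by the authors, was not used here.

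Groups followed the labels. With R 4.3.3 and edgeR 4.0.16, genes whose reads summed to 10 or more were fitted in 1 quasi-likelihood model (TMM scaling, legacy method, no covariate) and p-values were adjusted by Benjamini-Hochberg over all genes tested (threshold 0.05). The fit was tested on simulated data. Ratios were compared by exact permutation. Replicates of a group were further apart than counting noise allows (chi-square divided by its degrees of freedom, 2.65 to 3.29), so each counted as a sample. Reads lie near 3′ ends, so CPM was not divided by length. Names and positions came from GENCODE (GRCm38), which matched 47224 of 47643 identifiers, and promoters from RefSeq.

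The receptors, lists, and tests were chosen with earlier results of these data known. Named were the 9 receptors; of the other lists, genes called in any comparison and up to 3 a list by mean CPM; the 5 genes most and least like *Gpr65*; *Nr4a3*, *Pdcd1*, and *Lag3*; and genes overlapping a receptor. The values of a listed gene are not reported here. DESeq2 1.42.0, limma-voom 3.58.1, edgeR's newer method, other scalings and filters, fits of 4 samples, left-out replicates, a replicate block, and 2 reads added in place of 0.5 were alternatives. Figures used matplotlib 3.10.9.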

Additional observations from a re-analysis of the deposited data

How the results depend on the processing

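*Gpr65* was called higher with anti-PD1 than with isotype in all 15 alternatives (log2 difference 1.16 to 1.40). Receptor genes called between anti-PD1 and isotype numbered 1, and 1 to 2 with a replicate left out, *Gpr171* being the addition. Between anti-PD1 and anti-Lag3 they numbered 1, and 0 to 1 with a replicate left out. Listed family genes called between anti-PD1 and isotype numbered 3, and 2 to 4 over the alternatives (*Irf4* lost or *Sik3* added). Between anti-PD1 and anti-Lag3 they numbered 1 (*Gpr65*), and 3 without a filter beyond 1 read (*Crem* and *Sik3* added). With a replicate left out, the call of *Gpr65* was lost in the fits named above, and without anti-Lag3 replicate 2 *Cd69* was called in its place. Between anti-Lag3 and isotype they numbered 0, with *Crem* added when isotype replicate 1 was left out. Ratios of *Gpr65* higher without overlap between anti-PD1 and anti-Lag3 numbered 5, and 5 to 8 with a replicate left out (8 without anti-PD1 replicate 2), where fewer samples make overlap rarer.

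With the replicate number as a block, 2 receptor genes were called between anti-PD1 and isotype (*Gpr171*, adjusted p = 0.0494 in edgeR) and 2 listed genes between anti-PD1 and anti-Lag3 (*Sik3* added). Same-numbered samples did not deviate together (correlations of 0.02, 0.02, and -0.01), so the numbers were not taken as pairs.

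Over all genes, DESeq2 called 72 between anti-PD1 and isotype (edgeR 107; 46 to 161 with a replicate left out), 1 between anti-Lag3 and isotype (edgeR 5; 0 to 20 over the alternatives), and 16 between anti-PD1 and anti-Lag3 (edgeR 36; 58 without a filter, 3 to 49 with a replicate left out). No receptor that passed changed direction. The marker calls were less stable: *C1qa* lost its call in 6 of 15 alternatives between anti-PD1 and isotype, DESeq2 (adjusted p = 0.191) and limma-voom (0.0968) included, and *Ighm* in 4, DESeq2 (0.0738) included. Depth limits *P2rx7* and *Adora2a*, whose 95% intervals are the widest of the 9.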
